A study of Mus musculus with 12 samples.

Results

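The genes of the perineuronal matrix followed here across 12 mice are the lectican proteoglycan genes Acan, Bcan, Ncan and Vcan, the tenascin genes Tnr and Tnc, the link protein genes Hapln1, Hapln2 and Hapln4, and the metalloprotease gene Adamts9. They are 10 of 36121 deposited gene rows, picked by symbol. Each symbol had a single row, so no choice between rows was needed. All 10 had a mean of at least 1 TPM, as did 15259 rows in all. The 9 matrix genes were taken as a family, but with earlier results of these data known. Adamts9 was chosen by its high level in the knockout, so its levels are described with no test.

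Whole spinal cord RNA was sequenced from 3-month-old C57BL6 mice, 4 per group, each library from a separate mouse and each group, by its labels, with 2 males and 2 females. Control mice had the genotype Tardbp-fl/fl and no Cre. The cHet mice had Gfap-Cre and Tardbp-fl/+, and the cKO mice had Gfap-Cre and Tardbp-fl/fl, so every mouse carried a floxed allele of Tardbp, the gene of the RNA-binding protein TDP-43. Cre was driven by Gfap, an astrocyte gene; the driver line and the other cells in which it recombined were not stated in the labels used. Against control, the presence of Cre and the loss of both alleles cannot be told apart, whereas cHet shares Cre with cKO. The 3 comparisons share mice and are not independent. Values are the authors' normalized TPM, a level per transcript length, so levels of different genes can be compared.

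Lecticans are chondroitin sulfate proteoglycans that bind hyaluronan at one end and tenascins at the other, and link proteins stabilise the bond to hyaluronan. Together they form the perineuronal nets around the soma and proximal dendrites of many neurons, and a related matrix at the nodes of Ranvier. Metalloproteases of the ADAMTS family cut lecticans, and ADAMTS9 is known to cut aggrecan and versican. In bulk cord RNA, fewer cells of a type and less RNA per cell cannot be told apart.

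Between 15188 and 15384 genes reached 1 TPM per library, and read depth is unknown because TPM keeps none. The deposited values summed to 954895 to 1048381 per library and were higher in every cKO library than in every control library. Genes were called at an adjusted p under 0.05 from limma, fitted to log2(TPM + 0.5) of all 15259 genes with Benjamini-Hochberg adjustment. In cKO against control 878 genes were called higher and 496 lower, but 699 and 575 after median-of-ratios rescaling, 352 and 1666 with library totals made equal, and 473 and 822 with totals made equal without mitochondrially encoded genes. For cKO against cHet the calls were 367 higher and 398 lower, and 253 and 660 with equal totals. Tardbp held 171 ± 6.73 TPM in the control mice, 170.4 ± 8.64 in the heterozygotes and 148 ± 5.06 in the knockouts (SD, n = 4); all 4 cKO mice lay below all others, and cHet overlapped control. 1 library went against its sex label. Control replicate 1, labelled male, held 0.946, 0.600, 0.288 and 0.658 TPM of the Y-linked genes Kdm5d, Uty, Ddx3y and Eif2s3y. The 6 libraries labelled female held 1.05 to 1.26, 0.515 to 0.897, 0.336 to 1.15 and 0.313 to 1.59 TPM, and the other 5 labelled male 9.77 to 10.8, 9.91 to 12.7, 30.5 to 36.5 and 37.7 to 65.3 TPM. A wrong sex label and an exchanged library cannot be told apart, so the library stays in its labelled group and the results that rest on it are also given without it. Without it, limma called 693 higher and 345 lower in cKO against control. Markers of neurons, glia, vessels, ependyma and blood were detected. No marker was at 0 in all mice, and those with a mean under 1 TPM were the meningeal Foxc1 and the Schwann cell genes Prx, Pmp2 and Egr2.

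In control cord the levels of the 10 genes spanned from 254 ± 14.0 TPM for Bcan to 1.08 ± 0.156 TPM for Tnc (SD, n = 4). Hapln2 at 167 ± 12.1 TPM and Hapln4 at 96.7 ± 3.74 TPM came next after Bcan. Tnr followed at 25.6 ± 2.04 TPM, then Hapln1 at 13.8 ± 0.991 and Ncan at 13.1 ± 1.28, whose mice overlapped. Vcan at 8.09 ± 2.14, Acan at 6.33 ± 0.427 and Adamts9 at 2.59 ± 0.467 TPM lay below them. Apart from Hapln1 and Ncan, no neighbours in this order overlapped between control mice. In cKO, the mean of Ncan stood above that of Hapln1 and its mice overlapped those of Tnr, and the mean of Adamts9 stood above those of Acan and Vcan, its mice overlapping those of Acan. Of the summed lectican TPM, Bcan held 90.2% ± 0.429 in control mice, 90.7% ± 0.994 in heterozygotes and 89.3% ± 0.545 in knockouts (SD, n = 4). The share of Ncan was 4.66% ± 0.625, 4.45% ± 0.639 and 6.65% ± 0.353 in the same order.

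Of the 9 matrix genes, Ncan alone passed the test in cKO against control, where it rose; none fell. For that comparison limma called 9.0% of all genes (5.75% higher, 3.25% lower). Against cHet, too, Ncan rose and no other matrix gene was called, with 5.01% of all genes called (2.41% higher, 2.61% lower). At an unadjusted p under 0.05 were 6 of the 9 in each of these comparisons, beside 22.8% of all genes against control and 18.2% against cHet. Against control these were Vcan, which was lower, and Ncan, Bcan, Acan, Tnc and Hapln4, which were higher. Against cHet they were Hapln2, which was lower, and Ncan, Bcan, Acan, Tnc and Hapln4, which were higher. Between cHet and control limma called no matrix gene, nor any of the 15259 genes; at an unadjusted p under 0.05 were 0 of the 9 and 11.3% of all genes. The median log2 difference of the 9 genes was 0.14 for cKO against control (0.01 over all genes), 0.12 for cKO against cHet (0.00) and -0.03 for cHet against control (0.01).

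Without the library labelled control replicate 1, limma called 2 of the 9 genes in cKO against control, Ncan and Hapln4, beside 6.80% of all genes. The log2 change of Ncan was then 0.76 ± 0.08 (limma adjusted p = 0.000501) and that of Hapln4 0.17 ± 0.04 (limma adjusted p = 0.0347). The uncalled log2 differences were 0.44 for Tnc, 0.19 for Bcan, 0.17 for Acan, -0.03 for Hapln1, -0.11 for Hapln2, -0.12 for Tnr and -0.42 for Vcan. That of Adamts9, not tested, was 1.47. In cKO against cHet, where that library enters only through the shared estimate of the spread, Ncan was again the 1 matrix gene called, and in cHet against control there was none.

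Counted by separation of single mice, 5 of the 9 genes (Ncan, Bcan, Acan, Tnc and Hapln4) had all 4 cKO mice above all 4 control mice, as did 10.5% of all genes, and Vcan had all 4 below, as did 6.59% (17.1% in either direction). Above all cHet mice were 4 (Ncan, Acan, Tnc and Hapln4), as were 6.14% of all genes, and below them 0, beside 5.33% (11.5% in either direction). No matrix gene separated cHet from control, beside 6.23% of all genes (4.12% higher, 2.10% lower). The count above control was 4 after median-of-ratios rescaling, without Bcan (8.70% of all genes). It was 2, Ncan and Tnc, with equal totals (3.58% of all genes) and with equal totals without mitochondrially encoded genes (5.59%). The same 5 genes were above and Vcan below without control replicate 1, beside 13.4% and 8.51% of all genes.

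**Figure D1:**
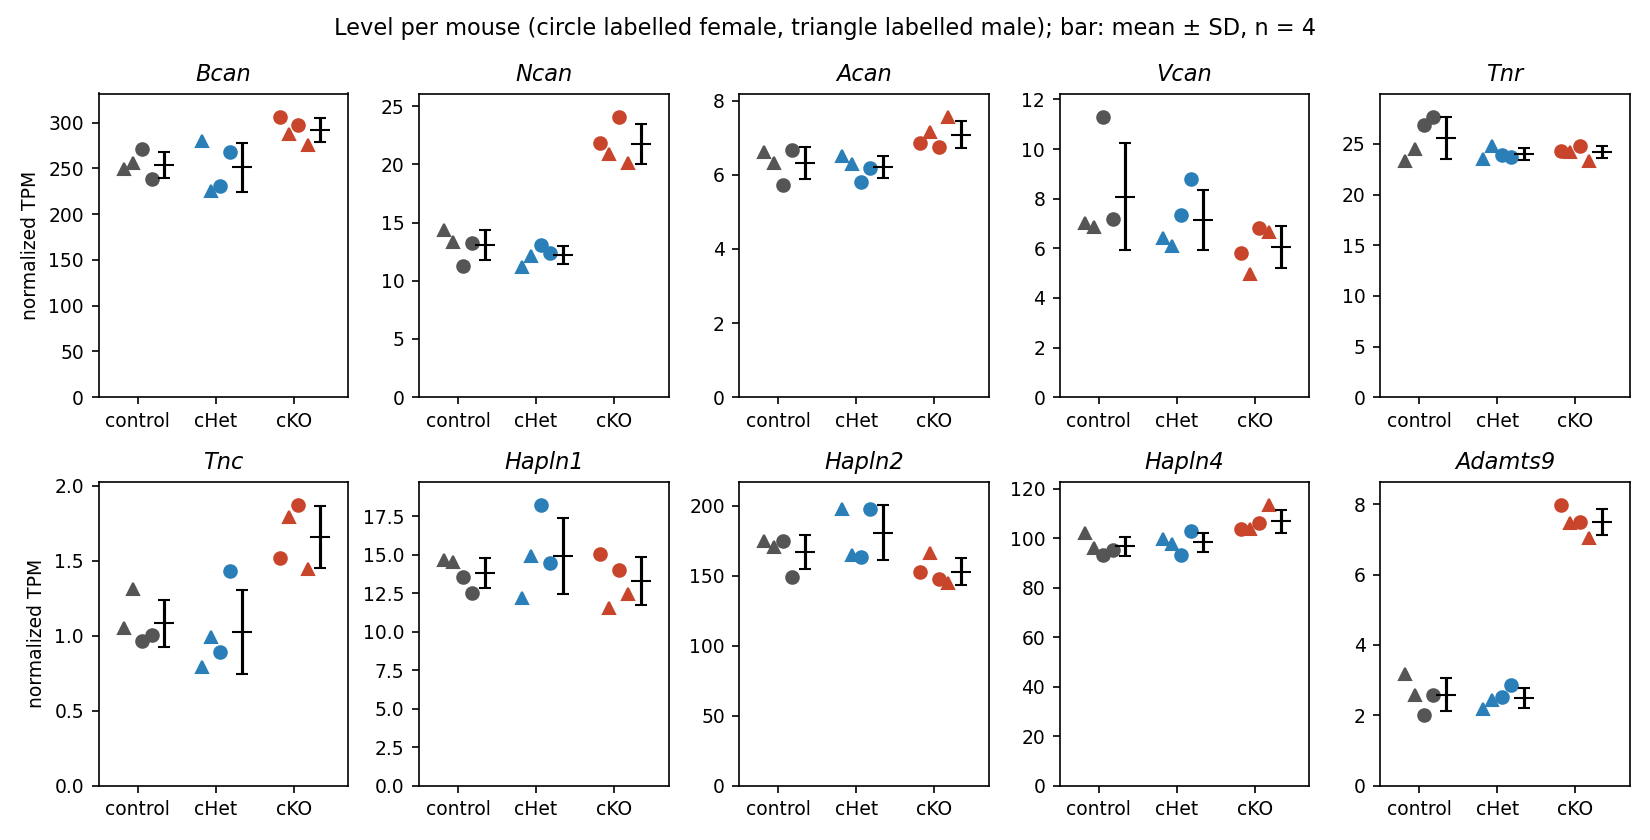
Normalized TPM of each gene (y axis, from 0) in each mouse by group (x axis), circles for mice labelled female and triangles for those labelled male, with a bar for the mean ± SD of 4 mice. Ncan and Adamts9 show the cKO mice far from the others; in Bcan, Acan, Tnc and Hapln4 the cKO mice lie just above the control mice, and in Vcan a single control mouse at 11.3 TPM stands apart.

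**Figure D2:**
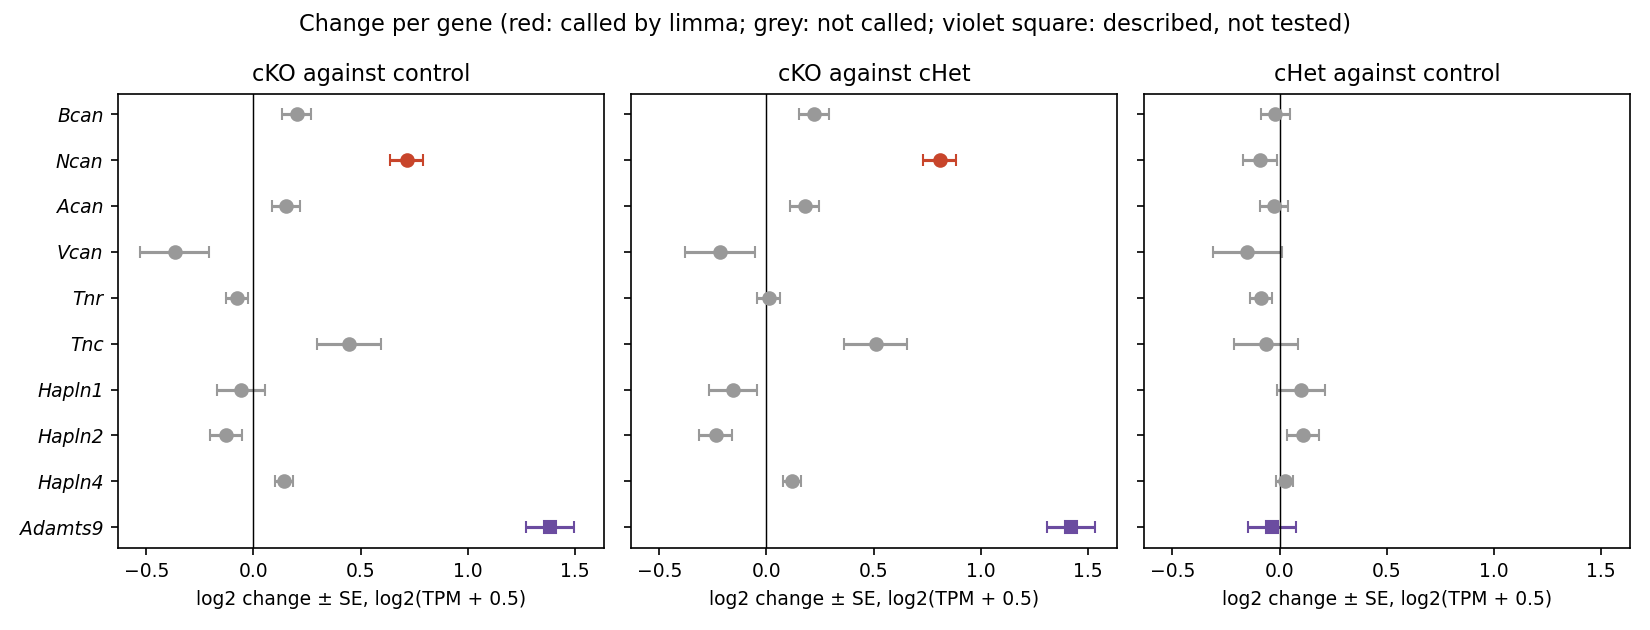
Log2 change ± SE of limma (x axis) for each gene (y axis) in the 3 comparisons, red where called. Ncan is called in both comparisons with cKO (0.72 and 0.81), Adamts9, not tested, is at 1.38 and 1.42, and for cHet against control the matrix genes range from -0.15 (Vcan) to 0.11 (Hapln2).

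Neurocan (Ncan, ENSMUSG00000002341, chromosome 8, 70093085 to 70120873, minus strand, GRCm38 here and below) is a lectican of the nervous system made by neurons and astrocytes. The control mice held 14.4, 13.3, 11.3 and 13.2 TPM, the cHet mice 11.2, 12.2, 13.0 and 12.4 TPM and the cKO mice 21.9, 20.9, 24.1 and 20.1 TPM. Every cKO mouse was above every other mouse, while control and cHet overlapped. The mean TPM in cKO was 1.66 times that of control, a log2 change of 0.72 ± 0.08 (SE; limma adjusted p = 0.000216), and 1.78 times that of cHet (0.81 ± 0.08, limma adjusted p = 0.000143). For cHet against control the difference was -0.09 ± 0.08 (limma adjusted p = 0.704). The likelihood ratio q-values of the authors' deposited tables were 0.000989 for cKO against control and 0.000107 for cKO against cHet.

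Among tested genes other than clones and predicted names, Ncan was, after Elovl2, the gene whose pattern over the 12 mice was most like that of Adamts9. The measure was the root mean square difference between standardised log2 levels, 0.174 SD for Ncan, 0.127 for Elovl2, a fatty acid elongase gene, and 0.196 for Sod3, an extracellular superoxide dismutase gene, against a median of 1.32 over genes. Adamts9 was chosen for its level in cKO, so this likeness is a description. Seen from Ncan, the nearest were Adamts9, Gpnmb (0.198 SD) and Elovl2 (0.211 SD). The means of Elovl2 were 11.6 ± 0.767, 11.8 ± 0.902 and 19.1 ± 0.681 TPM for control, cHet and cKO (SD, n = 4). Sod3 had 4.95 ± 0.499, 5.23 ± 0.560 and 9.34 ± 0.418 TPM, and Gpnmb 1.40 ± 0.420, 1.10 ± 0.119 and 3.88 ± 0.796 TPM, in the same order. Without control replicate 1, Elovl2 (0.124 SD) and Ncan (0.172 SD) were still the nearest to Adamts9, and Igfbp2 (0.180 SD) took the place of Sod3. The other members lay further from Adamts9, with Tnc at 0.517, Hapln4 at 0.604, Acan at 0.632 and Bcan at 0.755 SD, and Hapln1, Tnr, Vcan and Hapln2 at 1.51 to 1.71 SD.

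The 250 bases before the starts of Ncan, the matrix gene that was called, and Adamts9, the gene chosen for its level in cKO, are shown from RefSeq (GRCm38.p6, minus strand for both, read 5′ to 3′ towards the start; Ncan chr8:70120845-70121094, Adamts9 chr6:92943535-92943784). Capitals mark matches, on either strand, to 5 motifs searched: the TATA box (TATAAA), the CCAAT box (CCAAT), the GC box (GGGCGG), the AP-1 motif (TGANTCA) and the STAT motif (TTCNNNGAA).
Ncan: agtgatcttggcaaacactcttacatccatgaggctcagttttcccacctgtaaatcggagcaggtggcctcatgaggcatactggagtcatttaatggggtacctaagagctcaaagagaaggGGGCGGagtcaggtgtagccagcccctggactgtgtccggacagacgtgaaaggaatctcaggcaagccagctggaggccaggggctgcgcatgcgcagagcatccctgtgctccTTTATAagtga
Adamts9: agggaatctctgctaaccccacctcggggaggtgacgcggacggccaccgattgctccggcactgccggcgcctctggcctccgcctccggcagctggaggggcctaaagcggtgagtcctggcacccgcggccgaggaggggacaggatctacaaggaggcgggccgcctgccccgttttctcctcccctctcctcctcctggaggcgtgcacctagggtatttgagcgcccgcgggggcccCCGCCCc
Both windows hold 1 GC box, at position -126 in Ncan and -7 in Adamts9 counted from the start, and 32.7% of 32851 such windows hold it. Ncan also has a TATA box on the opposite strand at position -11 (12.4% of windows). Positions count from the RefSeq start. The GENCODE model of Ncan begins upstream of that start, at 70120873, so this TATA box lies inside the model. Neither window holds a CCAAT box (33.8% of windows). The AP-1 motif (6.75% of windows) and the STAT motif (7.02%) were in none of the windows of the 9 members with an entry. These matches describe letters only; no binding was measured. Hapln4 had no entry.

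Adamts9 (ENSMUSG00000030022, chromosome 6, 92772699 to 92943492, minus strand) encodes a secreted metalloprotease. The control mice held 3.16, 2.58, 2.02 and 2.58 TPM, the cHet mice 2.17, 2.44, 2.51 and 2.85 TPM and the cKO mice 7.97, 7.46, 7.49 and 7.05 TPM. The cKO mice stood far above the others, and control and cHet overlapped. The mean TPM in cKO was 2.90 times that of control and 3.00 times that of cHet, differences on the log2(TPM + 0.5) scale of 1.38 and 1.42. The log2 difference of cHet from control was -0.04.

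TDP-43 is known to bind RNA with UG repeats, so the annotated transcripts of the members (GENCODE M21, GRCm38) were searched for runs of at least 6 TG repeats, which 7.01% of 21901 protein-coding genes have. Only spliced protein-coding transcripts were searched, and introns were left out. In these sequences Adamts9 and Hapln1 had a run, and the other 8 members had none. In Adamts9 a run of 30 bases lies in the 3′ UTR of 2 transcripts, at chr6:92774441-92774470 on the minus strand, and is printed as the repeat of the member with the highest fold.
Adamts9 repeat: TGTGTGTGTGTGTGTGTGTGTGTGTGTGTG
In Hapln1 a run of 54 bases lies in the 5′ UTR of an annotated transcript (chr13:89539974-89540027, plus strand). Hapln1 was not called in any comparison, and neither binding nor single transcripts were measured here.

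Brevican (Bcan, ENSMUSG00000004892, chromosome 3, 87987531 to 88000230, minus strand), an abundant lectican of the adult nervous system, is made mostly by astrocytes and oligodendrocyte precursors. Brevican transcript levels were 249.7, 256, 271 and 238 TPM in control mice, 280.3, 226, 231 and 268 TPM in cHet mice and 306, 287, 298 and 276 TPM in cKO mice. All cKO mice were above all control mice, but cHet replicate 1 was above the lowest cKO mouse. The log2 difference was 0.20 ± 0.07 (limma adjusted p = 0.0935) for cKO against control and 0.22 ± 0.07 (limma adjusted p = 0.0957) for cKO against cHet, neither called. It was called against control when only these 2 groups were fitted (limma adjusted p = 0.0301) and against cHet without cHet replicate 1 (limma adjusted p = 0.0322). With equal totals it was 0.11 against control (limma adjusted p = 0.402) and 0.18 against cHet (limma adjusted p = 0.241). The likelihood ratio q-values of the authors' deposited tables were 0.0158 and 0.153 for the same comparisons.

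Aggrecan (Acan, ENSMUSG00000030607, chromosome 7, 79053483 to 79115099, plus strand), the lectican that marks perineuronal nets, is made by the neurons that carry them. Acan levels were 6.61, 6.31, 5.73 and 6.66 TPM in control mice, 6.52, 6.29, 5.81 and 6.19 TPM in cHet mice and 6.86, 7.15, 6.75 and 7.56 TPM in cKO mice. All cKO mice were above all others, by a small margin at the edge. The log2 difference was 0.15 ± 0.07 (limma adjusted p = 0.192) for cKO against control and 0.18 ± 0.07 (limma adjusted p = 0.170) for cKO against cHet. It was positive in all 25 alternatives of each, down to 0.07 against control.

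Versican (Vcan, ENSMUSG00000021614, chromosome 13, 89655312 to 89742509, minus strand) is made by oligodendrocyte precursors and is a component of the matrix at nodes. Versican transcript levels were 7.01, 6.86, 11.3 and 7.17 TPM in control mice, 6.40, 6.09, 7.33 and 8.78 TPM in cHet mice and 5.80, 4.98, 6.82 and 6.65 TPM in cKO mice. The cKO mice were all below the control mice, the nearest pair differing only in the second decimal, and overlapped cHet. The log2 difference from control was -0.37 ± 0.16 (limma adjusted p = 0.200), and -0.20 without control replicate 3 (limma adjusted p = 0.419). Its quantification error, from the technical variance in the authors' deposited table, was 11.9%, beside 2.08% for Ncan; both assume a natural log scale.

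The tenascins link lecticans into a lattice. Tnr (ENSMUSG00000015829, chromosome 1, 159523769 to 159931729, plus strand), the tenascin of oligodendrocytes and nets, held 23.3, 24.5, 26.9 and 27.7 TPM in the control mice, 23.5, 24.8, 24.0 and 23.7 TPM in the cHet mice and 24.3, 24.2, 24.8 and 23.4 TPM in the cKO mice. The groups overlapped, and the log2 difference was -0.08 ± 0.05 (limma adjusted p = 0.434) for cKO against control and 0.01 ± 0.05 (limma adjusted p = 0.954) for cKO against cHet.

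Tnc (ENSMUSG00000028364, chromosome 4, 63959785 to 64047015, minus strand), a tenascin of development and glial reaction, was the lowest of the genes. Tnc levels were 1.05, 1.31, 0.963 and 1.01 TPM in control mice, 0.794, 0.994, 0.893 and 1.43 TPM in cHet mice and 1.52, 1.79, 1.87 and 1.45 TPM in cKO mice. All cKO mice were above all others, with cHet replicate 4 just under the lowest of them. The log2 difference was 0.45 ± 0.15 (limma adjusted p = 0.0876) for cKO against control and 0.51 ± 0.15 (limma adjusted p = 0.0766) for cKO against cHet, neither called. Both were called by eBayes without trend (limma adjusted p = 0.0484 and 0.0393), and the second also without cHet replicate 4 (limma adjusted p = 0.0269). Over the 24 alternatives of each, the limma adjusted p reached 0.194 against control and 0.178 against cHet. The log2 difference ran from 0.35 to 0.57 against control and from 0.40 to 0.66 against cHet. The likelihood ratio q-values of the authors' deposited tables were 0.0109 and 0.0535.

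Of the link proteins, Hapln4 (ENSMUSG00000007594, chromosome 8, 70083457 to 70090862, plus strand) is a neuronal one found in nets. The control mice held 102, 96.2, 93.3 and 95.1 TPM, the cHet mice 99.5, 97.6, 93.3 and 103 TPM and the cKO mice 104, 104, 106 and 113 TPM. The cKO mice were above all others, with a gap to the highest control mouse smaller than the SD of either group. The log2 difference was 0.14 ± 0.04 (limma adjusted p = 0.0508) for cKO against control, and it was called in 5 of 25 alternatives (lowest limma adjusted p = 0.0347). 1 of these was without control replicate 1 and 1 used sex as labelled as a covariate; with both the limma adjusted p was 0.0502. With equal totals the difference was 0.05. Against cHet it was 0.12 ± 0.04 (limma adjusted p = 0.137).

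Hapln2 (ENSMUSG00000004894, chromosome 3, 88021750 to 88027583, minus strand) is the link protein of myelinating oligodendrocytes, found at nodes. The control mice held 175, 170.4, 175 and 149 TPM, the cHet mice 197, 165, 163 and 198 TPM and the cKO mice 153, 167, 148 and 145 TPM. The groups overlapped, and the log2 difference was -0.13 ± 0.08 (limma adjusted p = 0.365) for cKO against control and -0.24 ± 0.08 (limma adjusted p = 0.110) for cKO against cHet. Hapln1 (ENSMUSG00000021613, chromosome 13, 89539796 to 89611652, plus strand) is the link protein that neurons use to assemble nets. The control mice held 14.6, 14.5, 13.6 and 12.5 TPM, the cHet mice 12.2, 14.9, 18.2 and 14.4 TPM and the cKO mice 15.0, 11.6, 14.0 and 12.4 TPM. All 3 groups overlapped, and the log2 difference was -0.06 ± 0.11 (limma adjusted p = 0.817) for cKO against control and -0.16 ± 0.11 (limma adjusted p = 0.520) for cKO against cHet.

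Each lectican gene lies beside a link protein gene in the genome. Ncan and Hapln4 lie 2222 bases apart, Bcan and Hapln2 21519 bases, Vcan and Hapln1 43659 bases, and Acan and Hapln3, which is no member, 2 bases by the annotated ends. The ratio of Ncan to Hapln4 TPM was 0.135 ± 0.00929 for control, 0.124 ± 0.0115 for cHet and 0.204 ± 0.0206 for cKO (SD, n = 4). The ratio of Bcan to Hapln2 was 1.52 ± 0.0705, 1.39 ± 0.0321 and 1.91 ± 0.135. The control ratios were 0.133 ± 0.0103 and 1.55 ± 0.0449 without control replicate 1 (SD, n = 3). In both pairs the 4 cKO mice were above all other mice, and the scaling between libraries does not enter a ratio. For Bcan to Hapln2 the cHet mice (1.35 to 1.42) also lay below all control mice (1.43 to 1.59). The ratios were not tested, and how often other gene pairs separate was not worked out. The ratios of Vcan to Hapln1 (0.590 ± 0.169, 0.486 ± 0.0990 and 0.459 ± 0.0649) and of Acan to Hapln3 (5.42 ± 0.700, 7.74 ± 3.21 and 6.67 ± 2.67) overlapped between groups. Hapln3 itself was low, with 1.19 ± 0.220 TPM in control. The Acan and Hapln3 genes meet at their 3′ ends on opposite strands, and reads there could be shared if strand was not used in counting.

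**Figure D3:**
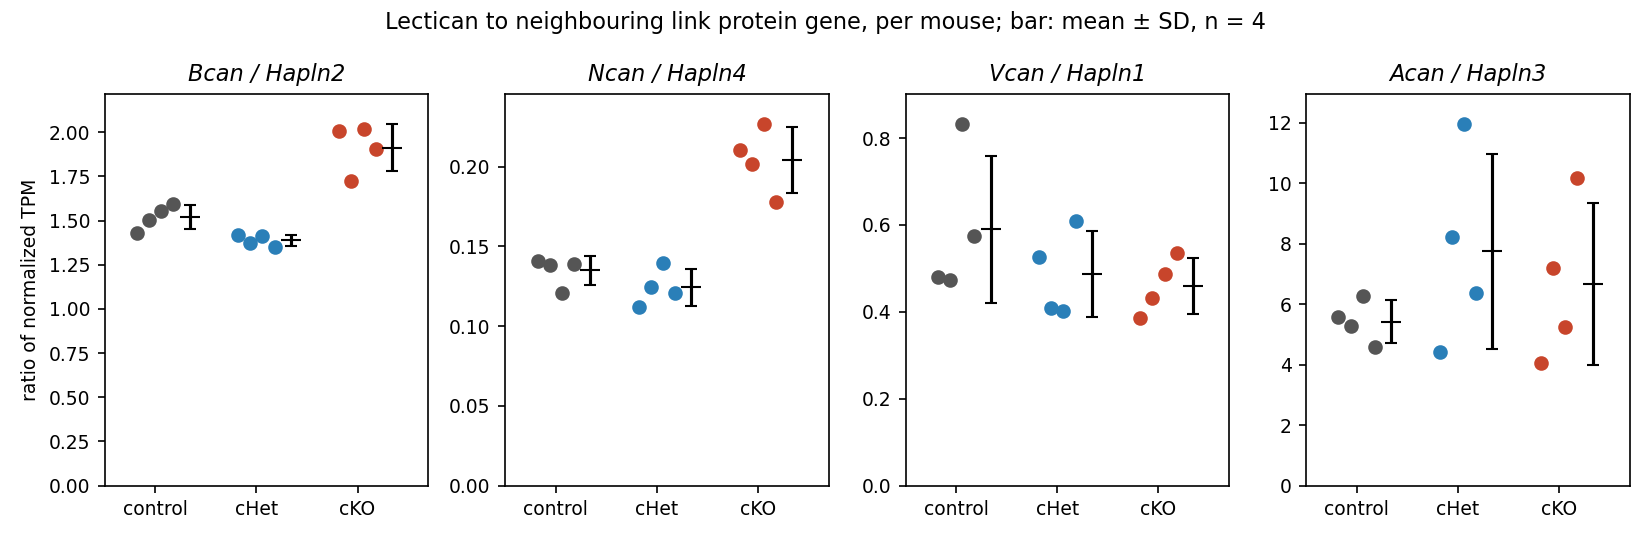
Ratio of the TPM of a lectican gene to that of its neighbouring link protein gene (y axis, from 0) per mouse, by group (x axis), with the mean ± SD of 4 mice. Bcan to Hapln2 and Ncan to Hapln4 are higher in all 4 cKO mice than in the other mice; Vcan to Hapln1 and Acan to Hapln3 overlap.

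Markers of astrocytes, mature oligodendrocytes and microglia moved in the same mice, while those of neurons with nets and motor neurons had no call. The part of any cell type in the differences was not tested. Marker sums and calls are given at the deposited scaling only, where the summed TPM was higher in every cKO library than in every control library. With library totals made equal, 352 of all genes were called higher and 1666 lower in cKO against control, not 878 and 496. Beside the marker counts, 9.0% of all genes were called against control (5.75% higher, 3.25% lower) and 5.01% against cHet. Without control replicate 1 it was 6.80% against control. The summed TPM of 12 astrocyte markers was 3535 to 3750.1 across control mice, 3586 to 3737 across cHet and 4197 to 4525 across cKO mice, with 4 of 12 genes called higher and 2 lower in cKO against control, and 5 and 2 in cKO against cHet. Gfap, the gene whose promoter drives Cre, had 1175 ± 55.5 TPM in control mice and 1391 ± 135 TPM in knockouts (SD, n = 4). The 12 mature oligodendrocyte markers summed to 21362 to 22341, 21378 to 25362 and 17724 to 20198 TPM in the same order, with 0 higher and 8 lower against control and 0 and 11 against cHet. For 12 oligodendrocyte precursor markers the ranges overlapped, 397 to 435, 404 to 435 and 379 to 427 TPM, with 1 higher and 1 lower against control and 0 and 1 against cHet. The 12 general neuron markers summed to 6285 to 6620.4, 6491 to 7024 and 6503 to 7078 TPM, with 3 called higher and 0 lower against control and 2 and 0 against cHet. The 8 markers of neurons that carry nets summed to 1204 to 1305, 1231 to 1321 and 1281 to 1334 TPM, and the 8 motor neuron markers to 237 to 267, 257 to 269.5 and 253 to 291 TPM, with none called in either list in either comparison. The 8 microglia markers summed to 199 to 208, 202 to 219.9 and 249 to 266 TPM, with 6 called higher against control and 4 against cHet, and 0 lower in both. Against control the counts without control replicate 1 were 3 higher and 2 lower for astrocytes, 0 and 8 for mature oligodendrocytes, 1 and 0 for precursors, 3 and 0 for neurons and 4 and 0 for microglia.

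Differences between the sexes rest on labels that 1 library contradicts. With the labels as given, the limma model of group and sex called 0 of 15259 genes between males and females, the Y-linked genes included, and 5.91% had an unadjusted p under 0.05. Without control replicate 1 it called 10 of 15260 genes, led by Kdm5d, Ddx3y, Eif2s3y and Uty, with an unadjusted p under 0.05 in 5.59%. None of the 9 matrix genes was called in either fit. At an unadjusted p under 0.05 was 1 of the 9 with the labels as given, Vcan, and 0 without that library, where the log2 difference of Vcan, males minus females, was -0.26 ± 0.12 (limma adjusted p = 0.895).

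The difference between the sexes in the change of cKO from control called 1 gene with the labels as given, Gm16867, which is no matrix gene (0.00655% of all genes; 3.88% at an unadjusted p under 0.05). Without control replicate 1 it rests on 1 control mouse labelled male, taken to vary like the other groups, and limma called 0 of 15260 genes (3.49% at an unadjusted p under 0.05). The 9 matrix genes had 0 calls in both fits. At an unadjusted p under 0.05 were 2 of them with the labels as given, Ncan and Hapln1, and 0 without that library.

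The other genes of the pathway were read from 6 lists with 141 symbols, of which 120 were tested. The lists were chosen with earlier results of these data known, so their shares of called genes are descriptions. In cKO against control 12 were called higher and 9 lower, 17.5% of the 120 beside 9.0% of all genes, and in cKO against cHet 9 higher and 4 lower, 10.8% beside 5.01%. No gene was called in cHet against control. Their median log2 differences were 0.03 for cKO against control, 0.04 for cKO against cHet and -0.01 for cHet against control, beside 0.01, 0.00 and 0.01 for all genes. With equal totals the counts were 8 higher and 16 lower in cKO against control and 5 higher and 8 lower in cKO against cHet, by a refit chosen after the data were seen. These are 20.0% and 10.8% of the 120, beside 13.2% of all genes (2.31% higher, 10.9% lower) and 5.98% (1.66% higher, 4.32% lower). Without control replicate 1 the counts were 10 higher and 3 lower in cKO against control (10.8% beside 6.80% of all genes) and 6 higher and 4 lower in cKO against cHet (8.33% beside 4.42%). In the refit with equal totals the median for cKO against control turned from positive to negative in all 5 lists other than the ADAMTS relatives, so those medians give no direction.

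Of 26 tested genes of chondroitin sulfate synthesis and sulfation 3 rose and 2 fell in cKO against control (median log2 difference 0.05), 19.2% of the list beside 9.0% of all genes. With equal totals 2 rose and 2 fell, 15.4% beside 13.2% of all genes (2.31% higher, 10.9% lower). Without control replicate 1, 3 rose and 0 fell, 11.5% beside 6.80%. Csgalnact1, which also rose with all mice and the deposited scaling, was called in neither refit. Papss2, which makes the donor of sulfate groups, rose from 6.57 ± 1.16 to 14.1 ± 1.12 TPM (SD, n = 4; log2 1.06 ± 0.12, limma adjusted p = 0.000337), with 6.46 ± 0.972 TPM in cHet. Xylt1, which adds the first sugar of the chain to the core protein, rose from 6.74 ± 0.145 to 9.88 ± 0.271 TPM (log2 0.52 ± 0.07, limma adjusted p = 0.000577). Chst3, which sulfates the galactosamine of the chain, fell from 2.83 ± 0.342 to 1.99 ± 0.109 TPM (log2 -0.42 ± 0.10, limma adjusted p = 0.0242). Papss1, the other sulfate donor synthase, fell by 0.15 on the log2 scale (limma adjusted p = 0.0281). Neither fall was called without control replicate 1 (limma adjusted p = 0.0663 for Chst3 and limma adjusted p = 0.0688 for Papss1), and Papss2 and Xylt1 were. Against cHet, Papss2 and Xylt1 rose and Papss1 fell, with log2 changes of 1.07, 0.56 and -0.19. For cHet against control the smallest p of the list was that of Chpf2 (log2 -0.21 ± 0.08, limma adjusted p = 0.370).

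Among the 18 tested relatives of Adamts9, none rose and 3 fell in cKO against control, 16.7% of the list beside 9.0% of all genes. Over 3 other scalings 4 or 5 fell, 22.2% to 27.8% beside 8.35% to 13.2% of all genes (3.77% to 10.9% lower). Without control replicate 1, 1 fell, 5.56% beside 6.80%. The median log2 difference was -0.15, beside 0.01 for all genes. Over those scalings it was -0.17 to -0.24, beside -0.003 to -0.074 for all genes, so the all-gene median moved down as well. The median was -0.12 for cHet against control and -0.07 for cKO against cHet, beside 0.01 and 0.00 for all genes. None of the 18 was called in cHet against control. The 3 that fell with all mice and the deposited scaling were Adamtsl4, which has no protease domain, from 31.0 ± 1.19 to 21.8 ± 2.16 TPM (log2 -0.50 ± 0.07, limma adjusted p = 0.00123), Adamts4, an aggrecanase, from 43.8 ± 1.83 to 35.0 ± 3.98 TPM (log2 -0.33 ± 0.08, limma adjusted p = 0.0220), and Adamtsl1 (log2 -0.41 ± 0.11, limma adjusted p = 0.0371). Of these 3 only Adamtsl4 was called without control replicate 1 (limma adjusted p = 0.0532 for Adamts4 and limma adjusted p = 0.0955 for Adamtsl1). Against cHet, Adamtsl5 was the called gene, and it rose (log2 0.38 ± 0.09, limma adjusted p = 0.0373; not called with equal totals, limma adjusted p = 0.0626, nor without control replicate 1, limma adjusted p = 0.0537). With equal totals 0 relatives were called higher against cHet and 2 lower, Adamts4 and Adamtsl1. These are 11.1% of the list beside 5.98% of all genes, and Adamtsl5 alone is 5.56% beside 5.01%. For cHet against control Adamtsl4 had the smallest p of the list (log2 -0.28 ± 0.07, limma adjusted p = 0.208). By level, Adamts4 was more abundant than Adamts9 in every group.

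In each of the next 3 lists, of 15, 10 and 17 tested genes, 1 gene was called per comparison with cKO, which is near the background of 9.0% of all genes against control and 5.01% against cHet. Of 15 tested matrix metalloprotease and inhibitor genes 1, Timp4, a metalloprotease inhibitor, was called in each comparison with cKO. It rose from 40.0 ± 2.58 to 48.8 ± 3.56 TPM against control (limma adjusted p = 0.0321; against cHet limma adjusted p = 0.0464). With equal totals neither was called (limma adjusted p = 0.0930 and limma adjusted p = 0.0671), nor the first without mitochondrially encoded genes (limma adjusted p = 0.0786), nor the second without control replicate 1 (limma adjusted p = 0.0569). Of 10 tested genes of hyaluronan metabolism and binding 1, Tnfaip6, which binds hyaluronan through a link module, fell from 29.5 ± 2.23 to 22.9 ± 2.60 TPM (limma adjusted p = 0.0323), and also against cHet (limma adjusted p = 0.0295). The first was not called without control replicate 1 (limma adjusted p = 0.0638). Of 17 tested receptors and partners of the nets 1, Cntn1, a neural cell adhesion gene, rose by 0.12 on the log2 scale against control (limma adjusted p = 0.0224) and by 0.11 against cHet (limma adjusted p = 0.0385). With equal totals neither call of Cntn1 held (limma adjusted p = 0.550 and limma adjusted p = 0.136), nor the first without mitochondrially encoded genes (limma adjusted p = 0.178), nor either without control replicate 1 (limma adjusted p = 0.0520 and limma adjusted p = 0.0556).

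Of 34 other proteoglycan and matrix glycoprotein genes tested, 7 rose and 3 fell in cKO against control, 29.4% of the list beside 9.0% of all genes. With equal totals 6 rose and 7 fell, 38.2% beside 13.2% of all genes (2.31% higher, 10.9% lower). Without control replicate 1, 6 rose and 2 fell, 23.5% beside 6.80%. With all mice and the deposited scaling, the syndecan gene Sdc3 rose from 118 ± 2.90 to 149.6 ± 3.02 TPM against control (limma adjusted p = 9.31e-05). The fibroblast proteoglycan gene Dcn rose from 9.63 ± 1.35 to 14.6 ± 0.906 TPM (limma adjusted p = 0.00165), and the glypican gene Gpc5 from 34.4 ± 1.48 to 43.7 ± 2.39 TPM (limma adjusted p = 0.00269). Sned1 fell from 18.3 ± 1.13 to 11.5 ± 1.84 TPM (limma adjusted p = 0.00219). In cKO against cHet 4 rose and 2 fell, 17.6% of the list beside 5.01% of all genes. Sdc3 and Gpc5 rose, and Spock3 and Sned1 fell by 0.21 and 0.50 on the log2 scale. For cHet against control the smallest p of these 4 lists belonged to Mmp28 (log2 -0.10 ± 0.09, limma adjusted p = 0.720), Hyal1 (log2 0.16 ± 0.12, limma adjusted p = 0.663), Nptxr (log2 -0.10 ± 0.04, limma adjusted p = 0.382) and Agrn (log2 -0.18 ± 0.06, limma adjusted p = 0.297), none called.

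**Figure D4:**
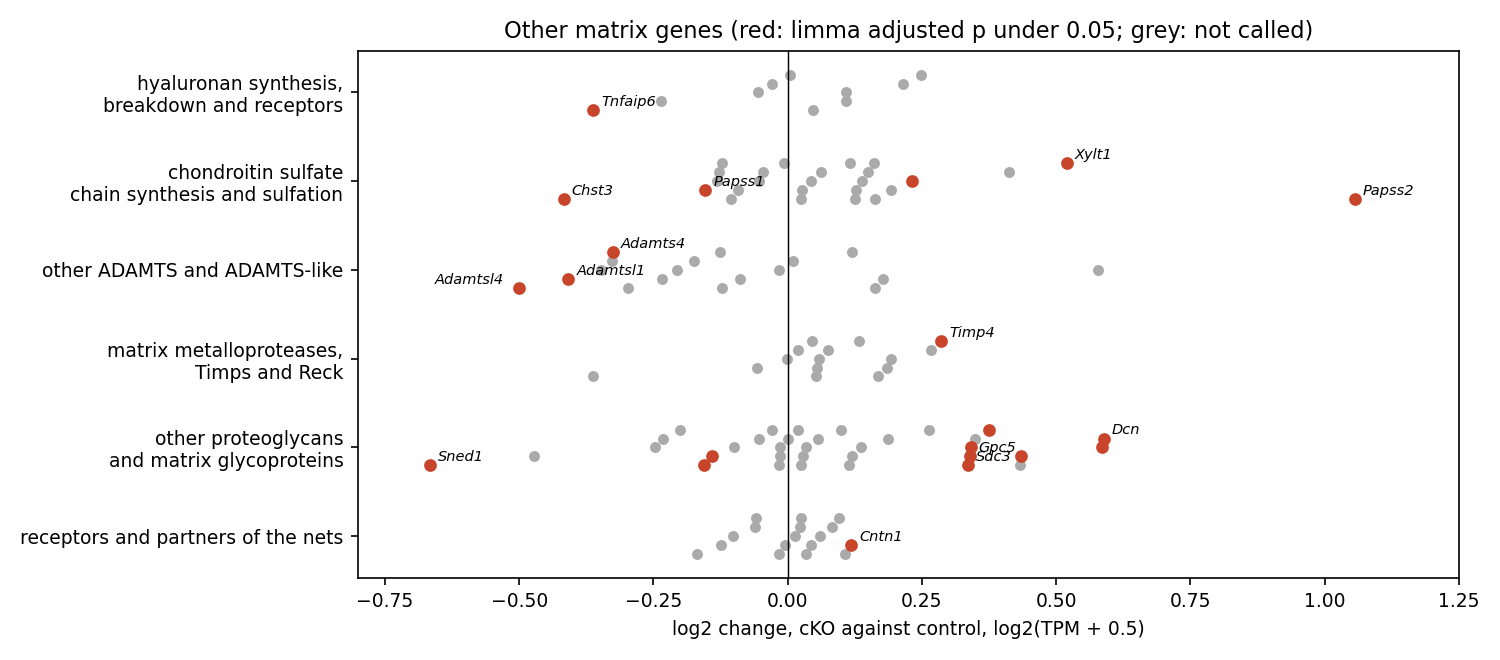
Log2 change of cKO against control (x axis) for the 120 tested genes of 6 matrix lists (rows), with the genes called by limma at an adjusted p under 0.05 set off by colour from the rest. Papss2, at 1.06, lies furthest from 0, and the called ADAMTS relatives all lie below 0.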

How the data were processed

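RNA-seq of whole spinal cord was analysed in 12 mice (4 control, 4 cHet, 4 cKO), with groups taken from the genotype in the labels. The authors deposited normalized TPM per gene, a signal that is never negative, made with kallisto 0.44.0 and sleuth 0.30.0 on GRCm38 per the submitters' processing notes; the filters and annotation release were not stated there. The authors also deposited a table per pair of groups, from which q-values, the direction of the effect and the technical variance were used as deposited. The log base of that effect and variance is not stated; regressed on differences of natural log TPM the effect had a slope of 1.03, so the variance was read as natural log.

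The 15259 genes whose mean reached 1 TPM were compared on log2(TPM + 0.5) with limma 3.58.1 in R 4.3.3 (all 12 mice, no covariate, eBayes with trend, two-sided, Benjamini-Hochberg over all genes); fold changes on this scale understate low genes. The step was tested on simulated data. The members and gene lists were chosen with earlier results of these data known. From each list, up to 4 called genes per comparison are named by adjusted p, or else the gene with the smallest p. Pathway lists were also refitted under the other scalings, and lists, sex fits and counts without control replicate 1, whose Y-linked genes go against its sex label; these checks were added after the data were seen. Gene models are from GENCODE M21, which holds all 10 members. Alternatives were other filters, pseudocounts, scalings, fits, and leaving out each mouse. Protein sequences were not analysed here.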

Additional observations from a re-analysis of the deposited data

Results flagged for a closer look

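Each of the 10 genes was looked at in each group of 4 mice, 30 sets in all, for a mouse whose distance to its nearest neighbour took up nearly all of the group's range, which chance gives in about 1 of 20 sets (Dixon's test at the 95% level); 2 sets had one. Vcan in control replicate 3 was at 11.3 TPM, with the next control mouse at 7.17 TPM. Hapln2 in control replicate 4 was at 149 TPM, below the next at 170.4 TPM. These are different mice.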

How the results depend on the processing

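Over the 9 matrix genes and 3 comparisons, 27 results, 672 pairs of a result and an alternative gave the same side of the threshold and the same direction in 650. No call was lost, 10 were gained (Hapln4, Tnc and Bcan) and 12 uncalled differences changed sign. Members called in cKO against control were 2, not 1, with a filter of 5 TPM, with sex as labelled as a covariate (1 when control replicate 1, whose Y-linked genes go against its label, was also left out), with eBayes without trend and with only the 2 groups fitted, and 1 to 2 when a mouse was left out; in cKO against cHet they were 2 with eBayes without trend and 1 to 2 when a mouse was left out. Genes called in cHet against control were 2 with a filter at a mean above 0 or of 0.1 TPM, and 0 to 1 when a mouse was left out. Genes called in cKO against control were 814 (without cKO replicate 2) to 1512 when a mouse was left out, with 890 without cKO replicate 4 and 907 without control replicate 2. By an alternative added after the data were seen, matrix genes with all cKO mice above all control mice went from 5 to 2 with equal totals (3.58% of all genes), and 2 without mitochondrially encoded genes (5.59%); above all cHet mice they went from 4 to 1 (3.57%) and 2 (6.30%). With equal totals the log2 difference of Tnr for cKO against cHet was -0.0305 and that of Hapln4 for cHet against control -0.0275, or -0.0296 without mitochondrially encoded genes. When a mouse was left out, cHet against control ranged over -0.0748 to 0.0289 for Bcan, -0.0687 to 0.00335 for Acan, -0.247 to 0.0126 for Vcan and -0.181 to 0.0115 for Tnc, cKO against control over -0.119 to 0.00242 for Hapln1, and cKO against cHet over -0.0025 to 0.0263 for Tnr. Ncan kept its call in all 25 alternatives of each comparison with cKO. Sex and its interaction gave 0 calls among the matrix genes in all alternatives run, with the labels as given. No paired analysis was possible because the labels give mouse identifiers and no replicate numbers that groups share. Depth is unknown, so counting error has no interval here.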
